A study of Mus musculus with 12 samples.

Results

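The genes described here are 10 markers and lineage regulators of fibroblasts, the connective-tissue cells that surround the gut epithelium: Pdgfra, Pdgfrb, Thy1, Cd34, Pdpn, Ly6a, Vim, Foxf1, Foxl1 and Gli1. They were set as a list of gene names, with earlier results of these data known. Of the 10, 8 had a row in the deposited tables, among 14907 genes listed. All 8 passed the filter on low values (a group mean of 10 or more) among 12385 genes tested, and each of the 8 did so in all 4 groups. Foxl1 and Gli1 had no row in the tables and are not analysed here.

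The cells were primary mesenchymal cells from the small intestine of C57/Bl6 mice, cultured to passage 3, sorted on GFP and serum starved overnight. The 12 libraries fell into 4 groups of 3, wild type (wt) or MyD88ko, each with or without LPS. LPS, the endotoxin of Gram-negative bacteria, came from E. coli and was given at 2 µg/ml for 6 hours. The MyD88ko genotype was ColVIcre-MyD88F/F-RosamTmG, in which a Cre driven by collagen VI sequences deletes the floxed gene for MyD88, an adaptor of the LPS receptor TLR4. The wt label was MyD88F/F-RosamTmG, so the floxed allele and the RosamTmG reporter, which turns from red to green fluorescence after Cre acts, were shared by all groups. The design text calls the wt cells ColVIcre+, which the wt genotype label does not show. The labels describe cells of both genotypes as sorted on GFP, the reporter colour that follows Cre, and do not settle whether the wt cells carried it. The age of the mice was not given. The labels number the replicates without saying whether they were separate animals, so p-values measure the spread between these libraries, which may be technical. Each of the 4 groups carries its own run of library codes, so neither treatment nor genotype can be told apart from the order of libraries.

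As background, Pdgfra and Pdgfrb encode the receptor tyrosine kinases for platelet-derived growth factors (PDGF). In the gut, PDGFRα is the usual mark of subepithelial and interstitial fibroblasts, and PDGFRβ is also strong in pericytes, the cells around small vessels. Thy1 (CD90) and Ly6a (Sca-1) are small surface proteins held by a lipid anchor, and Cd34 and Pdpn are sialylated surface glycoproteins. Vim encodes vimentin, the intermediate filament of mesenchymal cells. Foxf1 and Foxl1 are forkhead transcription factors of the gut mesenchyme that respond to hedgehog signals from the epithelium, Gli1 is a target and effector of that pathway, and FOXL1 marks the telocytes under the epithelium.

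Upstream sequences are shown for Pdgfra and Pdpn, the genes with a RefSeq promoter entry that differed between the genotypes below. Entries were found for 4 of the 8 listed genes (also Cd34 and Vim). Each run holds the 250 bases before the RefSeq start on build GRCm38.p6, 5′ to 3′ on the gene's own strand, which is chr5:75152001-75152250, plus strand, for Pdgfra and chr4:143299565-143299814, minus strand, for Pdpn. Capitals mark matches to the motifs searched.
Pdgfra: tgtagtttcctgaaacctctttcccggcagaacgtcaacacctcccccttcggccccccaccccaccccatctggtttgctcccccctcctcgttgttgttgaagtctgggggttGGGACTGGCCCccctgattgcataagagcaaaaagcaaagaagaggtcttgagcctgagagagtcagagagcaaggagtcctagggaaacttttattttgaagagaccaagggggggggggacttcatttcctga
Pdpn: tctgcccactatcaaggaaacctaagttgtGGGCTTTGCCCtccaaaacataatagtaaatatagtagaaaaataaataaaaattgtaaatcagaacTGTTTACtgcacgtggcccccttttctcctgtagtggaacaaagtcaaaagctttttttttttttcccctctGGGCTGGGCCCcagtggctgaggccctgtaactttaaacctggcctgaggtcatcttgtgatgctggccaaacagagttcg

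The letters searched, on both strands, were GGG and CC with any 5 bases between them for NF-kB, TTCNNNGAA for STAT, GAAA and GAAA with any 2 bases between them for IRF, TGANTCA for AP-1, CCACCCA for GLI, GTAAACA for forkhead factors, GGGCGG for SP1 and TATAAA for the TATA box. The Pdgfra window held 2 matches to the NF-kB letters, which overlap, and 0 to the other motifs. The Pdpn window held 4 matches to the NF-kB letters, in overlapping pairs, and 1 to the forkhead letters. Of 32851 promoter windows of this length, 45.8% held the NF-kB letters and 3.17% the forkhead letters, so the NF-kB matches are common. The shares for the other motifs were 7.02% (STAT), 2.98% (IRF), 6.75% (AP-1), 8.11% (GLI), 32.7% (SP1) and 12.4% (TATA box). A match is a run of letters and not a measured binding site.

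The values were counts of 3′ end reads, normalized and rounded by the authors, here called normalized read counts. Their totals ran from 3599944 to 4320551 per library, and the counted depth was estimated at 2.50 to 5.30 megareads. Myd88, the targeted gene, was at 99, 98 and 103 (untreated) and 171, 204 and 213 (LPS) for wt, and 14, 8 and 10 (untreated) and 24, 22 and 5 (LPS) for MyD88ko. The libraries labelled MyD88ko were thus all below the wt libraries (log2 fold change -3.15 untreated, adjusted p = 0.000471, and -3.70 with LPS, adjusted p = 7.07e-05, limma). Fibroblast matrix genes (8 of 8 listed in all libraries, led by Col1a1) summed to 38966 to 97485 (untreated) and 66700 to 117440 (LPS) in wt, and to 82142 to 104618 (untreated) and 125780 to 137710 (LPS) in MyD88ko. Smooth muscle genes, which myofibroblasts also express (9 of 9, led by Acta2), summed to 25578 to 28265, 42385 to 50340, 40344 to 45486 and 49797 to 59234 in the same order.

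Markers of other cells were low, with exceptions in the neuron list and, for epithelial markers, in a pair of wt untreated libraries. Epithelial markers, of which 5 of 12 were listed in all libraries, summed to 393 in wt untreated replicate 1 and 196 in replicate 3, against 13 in replicate 2. They summed to 38 to 53 in the LPS libraries of wt, and to 5 to 9 (untreated) and 4 to 33 (LPS) in MyD88ko. Most of those 2 sums was Cldn4, a tight junction gene, at 213 and 122, and Krt19, an epithelial keratin, at 166 and 62. Markers without a value in every library stand outside the sums. Among them Cdh1, the epithelial cadherin, was at 3, 0 and 719 in wt untreated replicates 1, 2 and 3, so its value in replicate 3 was larger than the whole sum there. Its values were 0 to 2 both for wt with LPS and for untreated MyD88ko. Krt18, another epithelial keratin, was at 1, 0 and 68 in wt untreated, against 0 to 3 for untreated MyD88ko. Hematopoietic markers (5 of 11 listed in all libraries) summed to 21 to 60 over the 12 libraries, and the endothelial list was represented by 1 of 10 markers, at 0 to 36. Neuron markers (2 of 4) summed to 113 to 184 (untreated) and 198 to 481 (LPS) in wt. In MyD88ko they summed to 103 to 172 (untreated) and 167 to 496 (LPS). Most of these neuron sums was Uchl1, which rose with LPS in wt (log2 fold change 1.34, adjusted p = 0.0201, limma). Its rise in MyD88ko was not called (1.11, adjusted p = 0.0947). Cdh1 in MyD88ko with LPS, Krt18 in the LPS libraries, and the defining markers Pecam1, Cdh5 and Ptprc are not analysed here. Calls that rest on wt untreated were therefore also tested without replicates 1 and 3, which leaves a single library in that group, assumed to vary like the other groups. In that reduced fit the untreated difference of Myd88 itself was -3.12 with an adjusted p of 0.0634. The part of these cells in the results was not tested. In such bulk samples, fewer cells of a type and less RNA per cell cannot be told apart.

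Against the background of all genes, the members changed as follows. LPS in wt changed 3 of the 8 genes (1 higher, 2 lower), where 19.2% of all tested genes were called at an adjusted p under 0.05. LPS in MyD88ko changed 0 of the 8, where 5.98% of all genes were called. limma gave 2 of the 8 an unadjusted p under 0.05 there, against 2600 of the 12385 tested genes. MyD88ko against wt without treatment changed 2 of the 8, both lower, against 1.88% of all genes. MyD88ko against wt with LPS changed 3 of the 8, all lower, against 1.49% of all genes. For the difference between both LPS responses, 0 of the 8 were called by limma (1 at an unadjusted p under 0.05), against 0.0161% of all genes. Of the 12385 genes, 1137 had an unadjusted p under 0.05 in limma for that difference. Such genes numbered 3966 for LPS in wt, 1923 between untreated genotypes and 1486 between genotypes with LPS. In the authors' deposited tables, 0 of the 8 had an adjusted p under 0.05 for LPS in wt, 0 for LPS in MyD88ko, 2 between untreated genotypes and 1 between genotypes with LPS. The absolute log2 fold change had a median of 0.86 over the 8 genes and 0.32 over all tested genes between untreated genotypes, and 0.82 and 0.29 between genotypes with LPS. For LPS the medians were closer, at 0.57 and 0.49 in wt and 0.36 and 0.38 in MyD88ko. The genotype comparisons share no library with each other, whereas each LPS comparison shares a group with each genotype comparison. The labels do not say whether untreated and LPS libraries came from the same cultures or animals. The genotype comparisons may therefore not be independent.

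**Figure D1:**
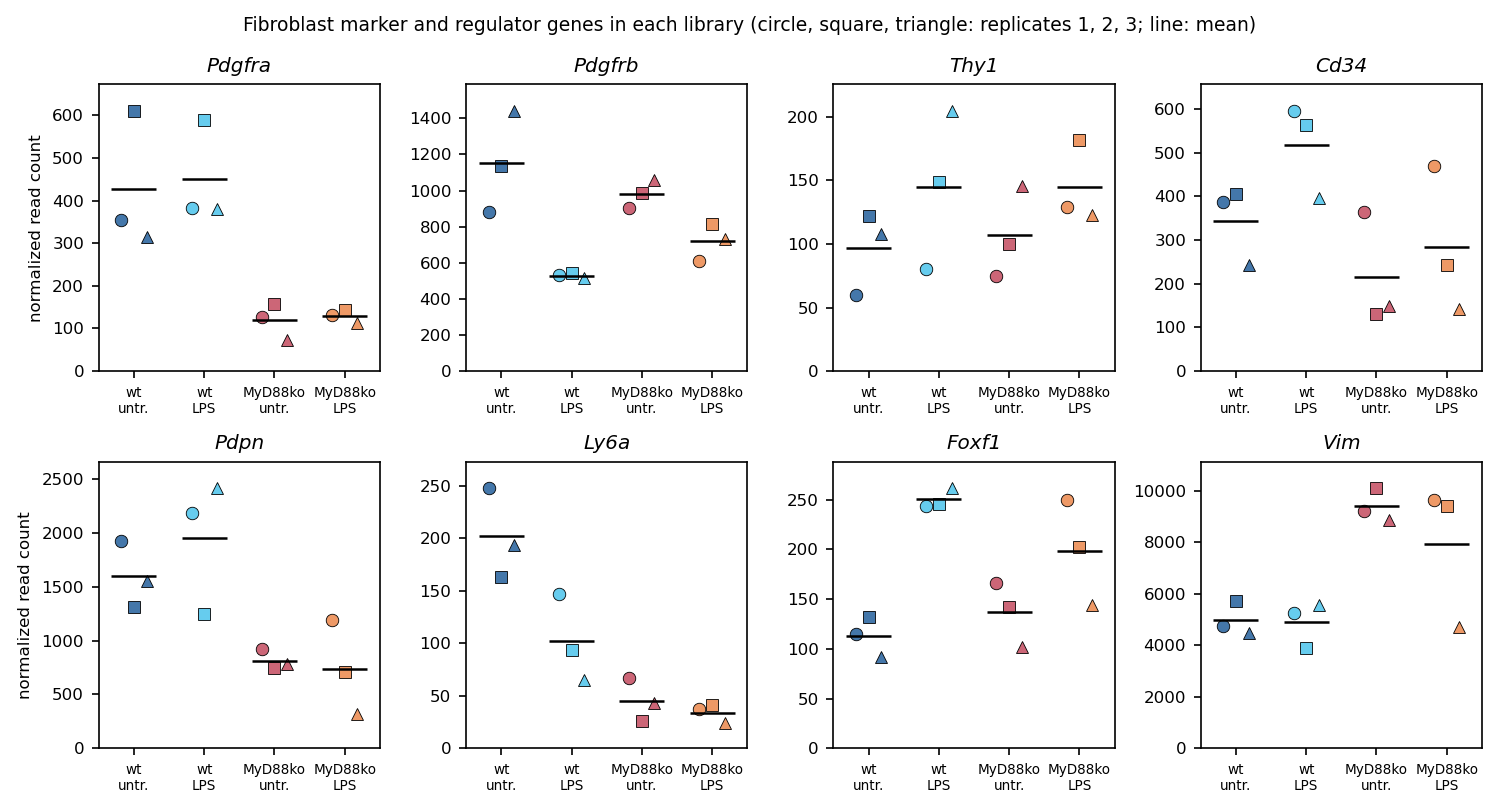
Normalized read count (vertical axis, linear from 0) of each listed gene in each library, by group (horizontal axis). Circles, squares and triangles are replicates 1, 2 and 3 and the line is the mean of 3. Pdgfra lies between 314 and 611 in the wt libraries and between 73 and 158 in the MyD88ko libraries.

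Counting libraries instead of calls, the groups did not overlap for 3 of the 8 genes with LPS in wt (34.8% of all tested genes) and for 1 with LPS in MyD88ko (25.5%). Between genotypes they did not overlap for 4 of the 8 untreated (20.4% of all genes) and 4 with LPS (15.8%).

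Pdgfra, the receptor for most PDGF forms, separated the genotypes with and without LPS. Its normalized read counts were 355, 611 and 314 (untreated) and 383, 589 and 380 (LPS) for wt, and 126, 158 and 73 (untreated) and 131, 144 and 113 (LPS) for MyD88ko. Every MyD88ko library lay below every wt library, and within a genotype the untreated and LPS libraries overlapped. Without LPS the MyD88ko level was 3.58-fold lower (log2 fold change -1.84, SE 0.29, adjusted p = 0.00162, limma) and 3.41-fold lower with LPS (-1.77, SE 0.29, adjusted p = 0.00222). In the authors' deposited table the adjusted p was 0.000732 untreated and 0.00373 with LPS. Both calls held under every alternative run, with adjusted p from 0.000132 to 0.0364 untreated and from 0.000175 to 0.0344 with LPS. Without wt untreated replicates 1 and 3, the untreated log2 fold change was -2.42 (adjusted p = 0.0138).

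LPS gave no called change of Pdgfra. The log2 fold change was 0.11 (95% interval -0.50 to 0.72, adjusted p = 0.831) in wt and 0.18 (-0.43 to 0.79, adjusted p = 0.776) in MyD88ko, and the 2 responses differed by 0.07 (adjusted p = 0.974). Replicate 2 held the highest Pdgfra value in each of the 4 groups. Replicate 2 also held the highest sum of fibroblast matrix genes in 3 of the groups, 97485 in wt untreated among them, while MyD88ko with LPS, low in Pdgfra, had the highest matrix sums. Pdgfra lies at chr5:75152292-75198215, plus strand, in mm10 (ENSMUSG00000029231), where GENCODE M21 places short transcripts on the other strand, Gm42802 among them. Whether the counting used strand is not given in the sources used here.

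Pdgfrb, the receptor for PDGF-BB and PDGF-DD, fell with LPS in wt. It was at 883, 1135 and 1443 (untreated) and 531, 543 and 513 (LPS) for wt, and 905, 989 and 1056 (untreated) and 608, 816 and 730 (LPS) for MyD88ko. LPS libraries lay below untreated libraries in both genotypes without overlap. The fall passed the test in wt (2.14-fold lower, log2 fold change -1.10, SE 0.20, adjusted p = 0.000867, limma) and held under every alternative run (adjusted p from 0.000702 to 0.0158). In MyD88ko the log2 fold change was -0.46 (95% interval -0.89 to -0.03) and was not called (adjusted p = 0.199). The difference between the 2 responses was 0.63 (adjusted p = 0.521, limma), the one with an unadjusted p under 0.05 above. In the authors' deposited table the wt change had an adjusted p of 0.119.

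Between genotypes, the log2 fold change of Pdgfrb was -0.20 untreated (adjusted p = 0.693) and 0.43 with LPS (adjusted p = 0.411), although the 3 MyD88ko libraries with LPS were all above the wt ones. From the highest mean to the lowest, the order was wt untreated (1154 ± 280, SD, n = 3), MyD88ko untreated (983 ± 75.7), MyD88ko with LPS (718 ± 105) and wt with LPS (529 ± 15.1). The first pair overlapped and the later neighbours did not. Pdgfrb lies at chr18:61045150-61085061, plus strand (ENSMUSG00000024620).

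**Figure D2:**
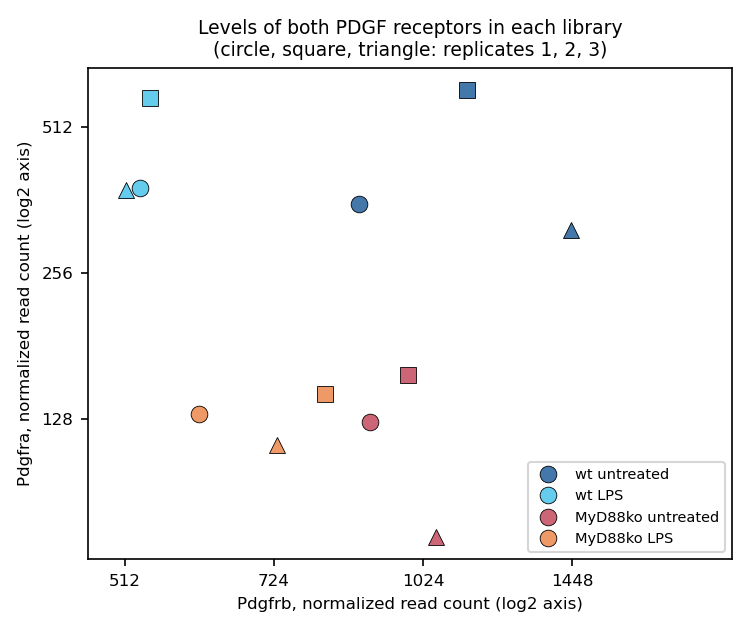
Normalized read count of Pdgfrb (horizontal, log2 axis) against Pdgfra (vertical, log2 axis), 1 point per library, coloured by group, with shapes for replicates 1, 2 and 3. The genotypes separate along Pdgfra (314 or more in wt, 158 or less in MyD88ko), and LPS libraries lie left of the untreated libraries of their genotype along Pdgfrb.

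The ratio of Pdgfra to Pdgfrb counts differed between libraries accordingly. It was 0.402, 0.538 and 0.218 (untreated) and 0.721, 1.08 and 0.741 (LPS) for wt, and 0.139, 0.160 and 0.0691 (untreated) and 0.215, 0.176 and 0.155 (LPS) for MyD88ko. All MyD88ko ratios were below all wt ratios, and wt with LPS was highest. The ratio compares libraries only, since the 3′ ends of both messages help set its level.

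Of 5 tested PDGF genes (the ligand genes Pdgfa, Pdgfb, Pdgfc and Pdgfd and the receptor-like Pdgfrl), only Pdgfa was called for LPS in wt. Pdgfa, which binds PDGFRα, fell there (528, 680 and 585 untreated, 404, 422 and 263 with LPS, log2 fold change -0.74, adjusted p = 0.0224). It did not pass without wt untreated replicate 2 or wt LPS replicate 3 (adjusted p up to 0.133), or without wt untreated replicates 1 and 3 together (0.0781). In MyD88ko it went from 824, 602 and 872 to 464, 517 and 507, which was not called (adjusted p = 0.109). Pdgfc, which also binds PDGFRα, was higher in MyD88ko than in wt with LPS (176, 212 and 197 against 112, 93 and 88, log2 fold change 0.99, adjusted p = 0.04), a call that any single omitted library ended (adjusted p up to 0.161). Of the 5 PDGF genes, 0 were called in MyD88ko with LPS against untreated, between untreated genotypes and for the difference of responses (2, 2 and 1 at an unadjusted p under 0.05 in limma).

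Ly6a, whose product Sca-1 marks stem-like and adventitial fibroblasts, was lower in MyD88ko. It was at 248, 163 and 194 (untreated) and 147, 94 and 65 (LPS) for wt, and 67, 26 and 43 (untreated) and 37, 41 and 24 (LPS) for MyD88ko. The genotypes did not overlap at either treatment, and in wt the LPS libraries lay below the untreated ones. Untreated MyD88ko cells were 4.62-fold lower than wt (log2 fold change -2.21, SE 0.36, adjusted p = 0.00188, limma), with an adjusted p of 0.00243 in the authors' deposited table. Leaving out any single library kept this call, and without wt untreated replicates 1 and 3 the log2 fold change was -1.92 (adjusted p = 0.233).

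With LPS the genotype difference of Ly6a was 2.85-fold (-1.51, SE 0.36, adjusted p = 0.0348), and leaving out any compared library but wt LPS replicate 3 ended the call (adjusted p up to 0.228). The authors' deposited table gave an adjusted p of 0.147 for it. The fall with LPS in wt was 2.05-fold (-1.03, SE 0.36, adjusted p = 0.0488), just inside the threshold, and was lost under 9 of 16 alternatives. These include the omission of each compared library but wt LPS replicate 1 (adjusted p up to 0.211), and it stood at an adjusted p of 0.472 without wt untreated replicates 1 and 3. In MyD88ko the LPS log2 fold change was -0.34 (95% interval -1.09 to 0.41, adjusted p = 0.637), and the responses differed by 0.69 (adjusted p = 0.697). Ly6a (chr15:74994877-74998031, minus strand, ENSMUSG00000075602) belongs to a family of similar genes, and how reads shared with a relative were counted is not given in the sources used here.

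Of its relatives, 2 of 15 in the Ly6 list were tested. Ly6e rose with LPS in wt (159, 155 and 125 to 411, 381 and 361, log2 fold change 1.39, adjusted p = 0.000368), under every alternative run. With LPS it was lower in MyD88ko (237, 161 and 129, log2 fold change -1.17, adjusted p = 0.0111), a call lost under 4 of 15 alternatives, 3 of them single omitted libraries (adjusted p up to 0.0735). Untreated, the genotypes differed by 0.02 (adjusted p = 0.98). Ly6c1 was at 44, 12 and 21 in wt and 6, 7 and 6 in MyD88ko without LPS, which was not called (adjusted p = 0.189). Ly6a and Ly6e thus took opposite directions with LPS in wt.

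Pdpn encodes podoplanin, the mucin-type glycoprotein of fibroblastic stroma. Its values were 1924, 1311 and 1554 (untreated) and 2182, 1244 and 2419 (LPS) for wt, and 918, 744 and 784 (untreated) and 1191, 708 and 316 (LPS) for MyD88ko. All MyD88ko libraries lay below all wt libraries. With LPS the difference was 2.91-fold (log2 fold change -1.54, SE 0.36, adjusted p = 0.0448, limma), and untreated it was -0.96 (95% interval -1.73 to -0.19) without a call (adjusted p = 0.204). The call with LPS was lost without wt LPS replicate 1 (adjusted p = 0.189), wt LPS replicate 3 (0.181), MyD88ko LPS replicate 2 (0.109) or MyD88ko LPS replicate 3 (0.0877). It was also lost with only the compared groups in the fit (0.141), and the authors' deposited table gave 0.236.

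The spread of Pdpn was largest in MyD88ko with LPS, where the highest of 3 libraries was at 1191 and the lowest at 316. LPS gave a log2 fold change of 0.25 in wt (adjusted p = 0.684) and of -0.34 in MyD88ko (adjusted p = 0.649). The gene lies at chr4:143267431-143299564, minus strand (ENSMUSG00000028583).

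Cd34, a marker of the trophocytes and adventitial fibroblasts of the gut, varied more within MyD88ko than within wt. It was at 386, 404 and 243 (untreated) and 596, 563 and 396 (LPS) for wt, and 363, 131 and 150 (untreated) and 469, 243 and 141 (LPS) for MyD88ko. Replicate 1 was the high library in both MyD88ko groups, and each pair of groups compared overlapped. The log2 fold change between genotypes was -0.80 untreated (adjusted p = 0.378) and -1.01 with LPS (95% interval -1.90 to -0.12, adjusted p = 0.33), and with LPS it was 0.60 in wt (adjusted p = 0.352) and 0.39 in MyD88ko (adjusted p = 0.644). Cd34 (chr1:194938819-194961279, plus strand, ENSMUSG00000016494) shares 5521 bases with Gm16897, a transcript on the other strand, so reads of the 2 cannot be told apart if counting ignored strand.

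Thy1, the CD90 surface protein of fibroblasts and T cells, showed no called change. Its values were 60, 122 and 108 (untreated) and 80, 149 and 205 (LPS) for wt, and 75, 100 and 146 (untreated) and 129, 182 and 123 (LPS) for MyD88ko. The groups overlapped in every comparison. LPS gave log2 fold changes of 0.54 in wt (95% interval -0.18 to 1.26, adjusted p = 0.304) and 0.46 in MyD88ko (-0.26 to 1.18, adjusted p = 0.479). The genotypes differed by 0.15 untreated (adjusted p = 0.882) and 0.08 with LPS (adjusted p = 0.959). The intervals leave room for a change of more than 2-fold with LPS in wt. Thy1 lies at chr9:44043384-44048579, plus strand (ENSMUSG00000032011).

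Vim had the highest counts of the 8 genes in every library. It was at 4763, 5726 and 4498 (untreated) and 5252, 3907 and 5575 (LPS) for wt, and 9205, 10122 and 8878 (untreated) and 9641, 9421 and 4711 (LPS) for MyD88ko. Untreated MyD88ko libraries lay above all untreated wt libraries, and with LPS replicate 3 of MyD88ko fell within the wt range. The untreated difference was 1.89-fold (log2 fold change 0.92, SE 0.24) and narrowly missed the threshold (adjusted p = 0.0596, limma). It passed with only the compared groups in the fit (adjusted p = 0.0206) and without wt untreated replicate 2 (0.0444). With LPS the difference was 0.63 (adjusted p = 0.275), and without MyD88ko LPS replicate 3 it was 0.97 (adjusted p = 0.0161).

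For Vim, LPS gave a log2 fold change of -0.03 in wt (95% interval -0.54 to 0.48, adjusted p = 0.942) and of -0.32 in MyD88ko (adjusted p = 0.497). Vim lies at chr2:13573927-13582826, plus strand (ENSMUSG00000026728). Among 6 tested genes of other intermediate filaments, Lmnb1, a nuclear lamin, rose with LPS in wt (31, 30 and 103 to 102, 107 and 98, log2 fold change 1.14, adjusted p = 0.0425). That call was lost under 7 of 16 alternatives, and limma called 0 of the 6 between genotypes (1 untreated and 0 with LPS at an unadjusted p under 0.05). Des, the muscle filament desmin, was at 11 to 60 in wt untreated and 27 to 176 in MyD88ko untreated (adjusted p = 0.521).

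**Figure D3:**
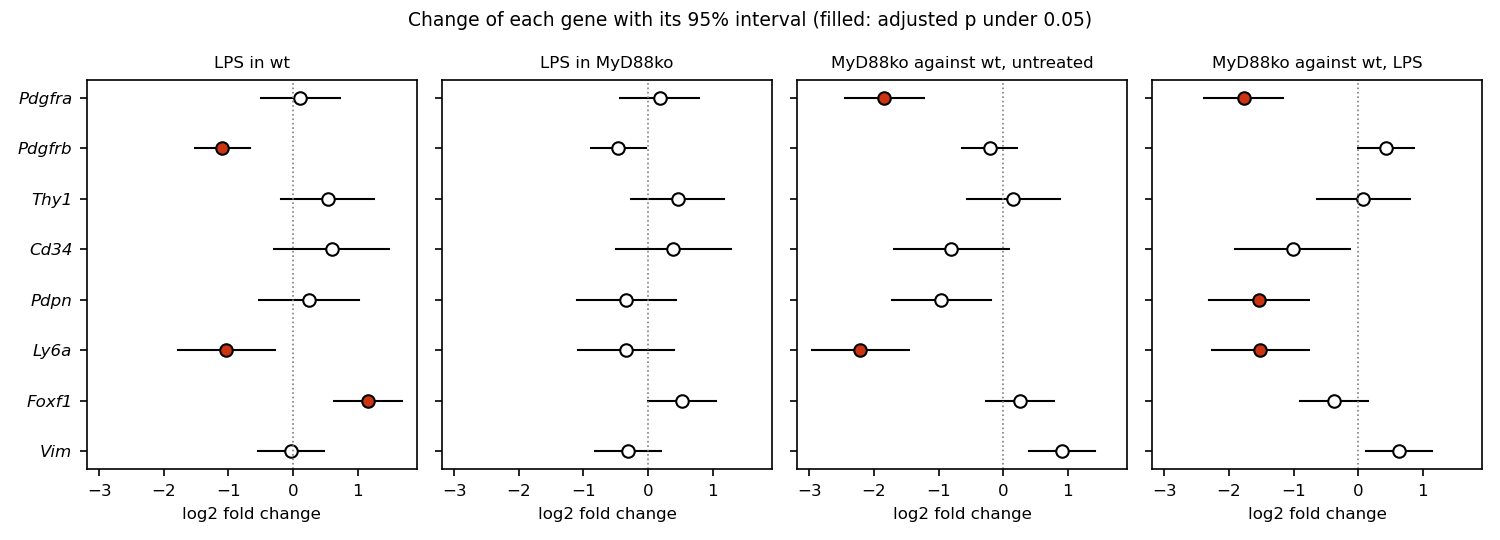
Log2 fold change (horizontal) of the 8 listed genes (rows) in 4 comparisons (panels), with 95% intervals from the limma fit of 12 libraries. Filled points passed an adjusted p under 0.05: Pdgfrb, Ly6a and Foxf1 for LPS in wt, none for LPS in MyD88ko, Pdgfra and Ly6a between untreated genotypes, and Pdgfra, Pdpn and Ly6a between genotypes with LPS.

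Foxf1, the forkhead factor of the gut mesenchyme, was the only 1 of the 8 genes called higher with LPS in wt. It was at 115, 132 and 92 (untreated) and 244, 246 and 262 (LPS) for wt, and 166, 142 and 102 (untreated) and 250, 202 and 144 (LPS) for MyD88ko. The wt groups did not overlap, while in MyD88ko the lowest LPS library was below the highest untreated one. The rise in wt was 2.23-fold (log2 fold change 1.16, SE 0.25, adjusted p = 0.00308, limma). Leaving out any single library kept it (log2 fold change 1.02 to 1.28, adjusted p up to 0.0166). Without wt untreated replicates 1 and 3 it was 0.92 (adjusted p = 0.127), and in the authors' deposited table the adjusted p was 0.147.

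In MyD88ko the Foxf1 log2 fold change with LPS was 0.53 (95% interval 0.00 to 1.06, adjusted p = 0.236). The 2 responses differed by -0.63 (adjusted p = 0.608), so a difference between genotypes in the response was not shown. Foxf1 did not pass between genotypes, at 0.26 untreated (adjusted p = 0.687) and -0.37 with LPS (adjusted p = 0.606). The gene (chr8:121084386-121088144, plus strand, ENSMUSG00000042812) lies wholly inside Gm20388, a longer gene model on the same strand that had values of 646 to 1803. How reads shared by both were assigned is not given in the sources used here. Its relative Foxf2 was at 60 to 100 in wt untreated and 47 to 109 in wt with LPS, which was not called (adjusted p = 0.593).

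Foxl1 lies 39796 bases beyond Foxf1. In place of Foxl1 and Gli1, which gave no values, other genes of their pathways are described from fixed lists. In the hedgehog list, 10 of 15 genes were tested, and limma called 0 of them for LPS in wt and 0 between untreated genotypes (2 at an unadjusted p under 0.05 in each). Ptch1, the hedgehog receptor and a transcriptional target of the pathway, rose with LPS in MyD88ko (9, 19 and 8 to 49, 39 and 28, log2 fold change 1.67, adjusted p = 0.0214), and leaving out MyD88ko untreated replicate 1 or 3 or MyD88ko LPS replicate 1 or 2 ended that call (adjusted p up to 0.0958). In wt it went from 21, 29 and 19 to 34, 45 and 32, which was not called (adjusted p = 0.291), and the responses were not shown to differ (adjusted p = 0.624). Gas1, a hedgehog co-receptor, was lower in MyD88ko than in wt with LPS (3, 11 and 2 against 57, 67 and 57, log2 fold change -3.54, adjusted p = 0.000977), under every alternative run. Gli2 and Gli3, the other GLI factors, were at 15, 42 and 19 and at 37, 75 and 46 in untreated wt and were not called in any of the 5 comparisons.

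Of 25 tested transcription factors of the gut mesenchyme, LPS in wt raised 3 (Snai1, Zeb1 and Osr1) and lowered 2 (Twist1 and Snai2), a share near the 19.2% of all tested genes. Snai1 and Snai2, related repressors of epithelial genes, went opposite ways, at 130, 143 and 114 to 248, 183 and 282 and at 164, 211 and 164 to 119, 105 and 93. Each of the 5 calls in wt was lost when some single library was left out (adjusted p up to 0.162), and all 5 were lost without wt untreated replicates 1 and 3 (0.0857 for Snai2 to 0.221 for Snai1). In MyD88ko LPS lowered Snai2 (log2 fold change -1.10, adjusted p = 0.00843) and changed no other of the 25. Between untreated genotypes limma called 0 of the 25, with 7 at an unadjusted p under 0.05, against 1923 of all 12385 genes. With LPS, Foxp2 was higher in MyD88ko (159, 353 and 308 against 117, 117 and 84, adjusted p = 0.0176) and Tbx18 lower (100, 64 and 49 against 180, 135 and 233, adjusted p = 0.0457), and single omitted libraries ended both calls (adjusted p up to 0.209).

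Among 7 tested genes linked to Foxl1+ telocytes, Wnt5a, a secreted non-canonical Wnt, was called in 3 comparisons, including a fall with LPS in wt (log2 fold change -0.73, adjusted p = 0.0112) that was lost without wt LPS replicate 1 (0.0582) or when wt untreated replicates 1 and 3 were left out (0.0721). It was at 429, 494 and 458 (untreated) and 244, 319 and 274 (LPS) for wt, and 871, 830 and 873 (untreated) and 624, 518 and 691 (LPS) for MyD88ko. It was higher in MyD88ko untreated (log2 fold change 0.90, adjusted p = 0.0162) and with LPS (1.13, adjusted p = 0.00282), the opposite direction to Pdgfra. The LPS call held under every alternative run, and the untreated call ended without replicate 1 of untreated wt or any MyD88ko untreated library (adjusted p up to 0.095), and at 0.403 without wt untreated replicates 1 and 3. Cd9, a tetraspanin that epithelial cells also express, was called lower in MyD88ko untreated (adjusted p = 0.0474) and with LPS in wt. Its wt untreated values of 2087, 250 and 1380 were highest in the libraries with epithelial markers. Without replicates 1 and 3 of that group, the untreated genotype log2 fold change of Cd9 shrank from -2.7 to -0.8. Its fall with LPS in wt shrank from -3.3 to -1.5. Tgfbi, a matrix protein, was lower in MyD88ko with LPS (87, 72 and 51 against 230, 379 and 151, adjusted p = 0.0431), and leaving out any compared library but wt LPS replicate 3 ended the call (adjusted p up to 0.189).

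Among 8 tested genes linked to Cd34+/Cd81+ trophocytes, Ackr4, a decoy chemokine receptor that marks submucosal fibroblasts, showed the only called difference between LPS responses among the listed genes. It fell from 698, 1441 and 950 to 117, 153 and 196 in wt (adjusted p = 2.29e-06), and was at 743, 932 and 1003 untreated and 523, 890 and 629 with LPS in MyD88ko. The responses differed by 2.27 on the log2 scale (adjusted p = 0.0468), which was lost under 11 of 21 alternatives (adjusted p up to 0.291). With LPS the level was higher in MyD88ko than in wt under every alternative run (log2 fold change 2.12, adjusted p = 0.000132). Fgf7, an epithelial growth factor made by stroma, was at 53, 33 and 43 without LPS in wt and 0, 0 and 1 in MyD88ko, and rose with LPS to 168, 131 and 110 in wt and 15, 6 and 10 in MyD88ko. The rise in wt was lost without wt untreated replicate 2 or 3 or wt LPS replicate 1 or 2 (adjusted p up to 0.109), or when untreated replicates 1 and 3 were both left out (0.121). Its genotype differences passed under every alternative run (adjusted p = 1.06e-05 untreated and 0.000214 with LPS). Cd81, a tetraspanin, rose with LPS in wt (936, 1116 and 1205 to 1826, 1688 and 1935, adjusted p = 0.0168) and in MyD88ko (1231, 1414 and 1207 to 1785, 1780 and 2939, adjusted p = 0.0484), and single omitted libraries ended both calls (adjusted p up to 0.164). The Cd81 call in wt was also lost without wt untreated replicates 1 and 3 (0.172). Grem1, the BMP antagonist of trophocytes, was at 3075 to 4397 in wt untreated and 2082 to 2935 in MyD88ko untreated, which was not called (adjusted p = 0.16).

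Of 16 tested genes common to fibroblasts of many organs, limma called 0 between untreated genotypes. An unadjusted p under 0.05 was reached by 8 of them, against 1923 of all 12385 genes. Cd44, the hyaluronan receptor, rose with LPS in wt (352, 322 and 328 to 622, 659 and 713, adjusted p = 0.00498), which was lost without wt untreated replicates 1 and 3 (0.0705). It was lower in MyD88ko with LPS (468, 280 and 282, log2 fold change -0.99, adjusted p = 0.0318). That genotype difference was lost under 7 of 15 alternatives (adjusted p up to 0.159). Col1a1, the main fibrillar collagen chain, was at 19270 to 52324 in wt untreated and 47978 to 56854 in MyD88ko untreated (log2 fold change 0.84, adjusted p = 0.147, not called). Over the 16 genes the median log2 fold change between untreated genotypes was 0.383, against 0.000 over all tested genes. The matrix genes Lum and Col6a3 had the smallest p of the non-members there and were also higher in MyD88ko without a call. Lum was at 369 to 961 in wt untreated and 988 to 2081 in MyD88ko untreated, and Col6a3 at 1525 to 3771 and 3428 to 4963. Some of the list lay on the other side. Fbln1, a matrix fibulin, stood at 126, 174 and 77 for untreated wt against 63, 67 and 90 for untreated MyD88ko (log2 fold change -0.71, adjusted p = 0.239), and its difference with LPS was -1.10 (adjusted p = 0.0693), neither of them called. Of 6 tested pericyte genes, which Pdgfrb also marks, limma called 0 in each of the 5 comparisons, with 0 to 3 at an unadjusted p under 0.05. Rgs5 and Cspg4, which define pericytes, were at 1 to 27 and 5 to 28 over the libraries. Mcam, an adhesion molecule of pericytes and vessels, was at 1240 to 6186. With LPS it was at 1240, 1549 and 2758 in wt and 6186, 3264 and 2472 in MyD88ko, which was not called (log2 fold change 1.08, adjusted p = 0.12), and the groups overlapped.

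**Figure D4:**
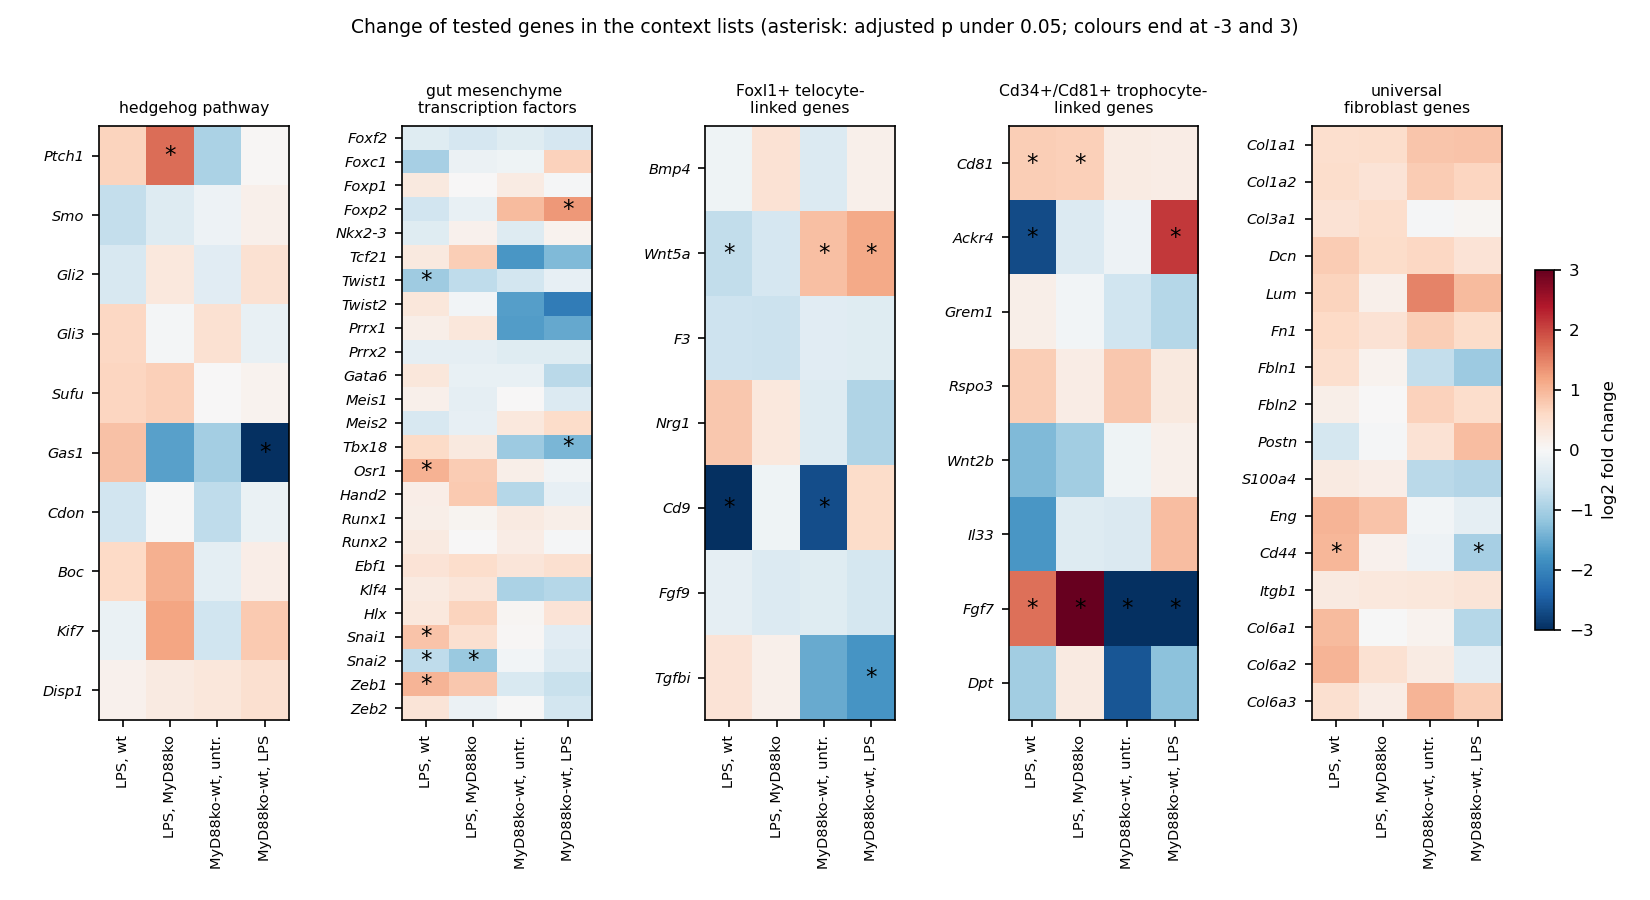
Log2 fold change (colour, from -3 in blue to 3 in red) of the tested genes (rows) of 5 lists in 4 comparisons (columns). Asterisks mark an adjusted p under 0.05. The hedgehog panel has 2 asterisks, Ptch1 for LPS in MyD88ko and Gas1 between genotypes with LPS, and the transcription factor panel has none between untreated genotypes.

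The genes whose pattern over the 12 libraries was most like each member were found by Pearson r of log2 values among 9555 protein-coding genes, as a description. The 12 points share 4 groups, so genes that differ between the same groups correlate. Pdgfra ran with Serping1 (r = 0.977), the C1 complement inhibitor, Sfrp1 (0.957), a secreted Wnt antagonist, and Ccbe1 (0.954), a matrix protein of lymphatic growth. Serping1 had group means of 439.0 and 640.3 in wt untreated and LPS and of 107.7 and 124.0 in MyD88ko. Pdgfrb ran with Rbbp7 (0.951), Atp5a1 (0.949) and Parn (0.945), which encode a chromatin, a mitochondrial and an mRNA-decay protein. Foxf1 ran with Tinagl1 (0.949), Psme3 (0.944) and Lrfn3 (0.937), and Tinagl1, a matrix protein, went from 139.7 to 535.3 with LPS in wt and from 227.0 to 412.3 in MyD88ko.

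The surface markers had other neighbours. Ly6a ran with Sirpa (0.923), Hsd11b1 (0.918), the cortisone reductase, and Fabp4 (0.902), a fatty acid carrier of adipocyte lineage cells. Pdpn ran with Fads1 (0.954), Marcksl1 (0.948) and Adam23 (0.942). Cd34 ran with Ank3 (0.922), Slc6a17 (0.895) and Gbp3 (0.884), and Thy1 with Plekhg5 (0.908), Hoxb5 (0.866) and Gm42641 (0.858). Vim ran with Nkain4 (0.931), Hebp1 (0.913) and Gcsh (0.883). Nkain4 had means of 84.0 in wt untreated and 339.7 in MyD88ko untreated.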

How the data were processed

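Messenger RNA ends were measured in 12 libraries with the 3′ QuantSeq kit on an Ion Proton, per the labels' protocols. TopHat2, Bowtie2, DESeq and build mm10 are named without versions per the submitters' processing notes. The authors deposited 4 tables, whose expression values are scores: normalized counts of reads for each gene, rounded to whole numbers, per the file headers. The same tables hold the authors' p-values and adjusted p-values and a log2 fold change, per the file headers. Values that stand in more than a single table (166719) were identical, with 0 differences.

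The log2 of the value plus 1 was modelled in limma 3.58.1 (R 4.3.3, trend, robust), in a fit of all 12 libraries with a coefficient per group. Genes with values in all 12 and a group mean of 10 or more were tested (12385), two-sided, with Benjamini-Hochberg adjustment over all of them. Folds of low genes are drawn toward 1 by the added 1. Depth was estimated from which low whole numbers do not occur in a library, and both steps were tested on simulated data. Over all tested genes, deviations of same-numbered replicates correlated weakly (r from -0.114 to 0.171), so a pairing of samples was not shown. It was not excluded either, since single genes can repeat the order of replicates, as Pdgfra did in all 4 groups. The main fit treats the libraries as unpaired.

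The members and lists were chosen with earlier results of these data known. Named genes are all members, Myd88, up to 4 tested genes per context list with the smallest p, the leading markers of other cell types, and the 3 protein-coding genes with a mean of at least 20 most correlated with each member. Gli2, Foxf2 and Osr1 fall outside this rule and were named after their values were seen. Alternatives were pseudocounts of 0.5 and 5, quantile normalization, no filter, a mean of at least 50, a TMM-like rescaling, limma without its trend, only the groups compared, a replicate block, and leaving out libraries. Sequences are from RefSeq (GRCm38.p6) and overlaps from GENCODE M21.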

Additional observations from a re-analysis of the deposited data

Results flagged for a closer look

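Among the genes named in the report, Ackr4 stood out because its LPS effect differed between the genotypes by the test of that difference. The log2 fold change with LPS was -2.69 in wt and -0.42 in MyD88ko, so the effects differed by 2.27 (SE 0.38, adjusted p = 0.0468, limma). That call was lost under 11 of 21 alternatives, 8 of them among the 12 that leave out a single library (adjusted p up to 0.291). All 3 wt LPS libraries, at 117, 153 and 196, lay below all the others, which ran from 523 to 1441.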

How the results depend on the processing

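Of 40 member results (8 genes in 5 comparisons), the 8 that were called kept their direction under every alternative run, and 31 of 664 alternative values reversed, all of them for results that were not called. Without wt untreated replicates 1 and 3 together, the called members fell from 3 to 1 for LPS in wt and from 2 to 1 between untreated genotypes, and genes called were 969, 37 and 14 for LPS in wt, untreated genotypes and the difference of responses. Of 14 called results of listed genes that are not members, for LPS in wt, 10 lost their call in that fit. With only the compared groups in the fit, members called were 4 between untreated genotypes and 1 between genotypes with LPS. The share of all genes called in that fit is not given here, so these member counts stand without a background. limma without trend called 1 member between genotypes with LPS, and 438, 83, 116 and 0 genes for LPS in MyD88ko, untreated genotypes, genotypes with LPS and the difference. For the difference, a pseudocount of 0.5 and a mean of at least 50 each called 0 genes and quantile normalization 4.

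Leaving out each library called 1 to 2 members between genotypes with LPS. Genes called ran from 1570 to 1947 (LPS in wt), 337 to 652 (LPS in MyD88ko), 64 to 412 (untreated genotypes), 85 to 189 (genotypes with LPS) and 0 to 44 (difference). These fits test fewer samples, and no other cause was tested. Reversed log2 fold changes were -0.47 for Pdgfra with LPS in wt, -0.24 for Thy1 between untreated genotypes, and 0.32 for Thy1 and 0.053 for Cd34 in the difference, all without wt untreated replicates 1 and 3. Under quantile normalization they were 0.16 for Vim with LPS in wt and -0.004 for Pdgfra in the difference. Ranges that cross 0 when a library is left out were, with LPS in wt, -0.10 to 0.40 (Pdgfra) and -0.13 to 0.12 (Vim), and with LPS in MyD88ko -0.13 to 0.42 (Pdgfra), -0.057 to 0.844 (Cd34), -0.78 to 0.18 (Pdpn) and -0.495 to 0.022 (Vim). For Thy1 they were -0.15 to 0.38 between untreated genotypes and -0.29 to 0.38 with LPS. For the difference they were -0.24 to 0.31 (Pdgfra), -0.45 to 0.23 (Thy1), -0.66 to 0.24 (Cd34) and -0.461 to 0.055 (Vim).

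A replicate block, though the numbers were not shown to pair the samples, called 2389, 763, 278, 206 and 2 genes in the 5 comparisons. It called 3, 0, 2, 3 and 0 members, as without it. The block gives same-numbered libraries of both genotypes a common effect. A pairing within each genotype was therefore not tested by it. At 2.50 to 5.30 megareads, Thy1 and Foxf1, near 100 counts in untreated wt, carry more relative counting error than Vim. This also holds for Ly6a, which was at 26 to 67 (untreated) and 24 to 41 (LPS) in MyD88ko.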
